A study of Trametes gibbosa with 15 samples.

Results

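Some genes of the white-rot fungus Lenzites gibbosa were read at a high level in 1 library and at almost nothing in another library of the same group. These on-off genes were chosen by that spread: within at least 1 group of 3 libraries, the highest CPM (a gene's count scaled by the total count of its library) plus 0.1 was 100 or more times the lowest. The rule was met by 161 of 12038 reference genes (1.34%). The ratios that chose them are given as a description, with no test. The deposited tables list reference genes by an identifier number, without a name, a product or a position, so the roles of the 161 genes are not given here and no sequence is shown.

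White-rot fungi are basidiomycetes that break down lignin as well as cellulose, with peroxidases, laccases and carbohydrate-active enzymes that they secrete. Fungal genomes are compact, and transcripts of neighbouring genes can overlap. Reads from such an overlap can be assigned to either gene, and the assignment depends on the gene models and on whether the strand is used.

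The study followed gene expression in mycelium of strain CB-1 while it grew on poplar wood. Stationary cultures in a low-nitrogen asparagine-succinate liquid medium with added glucose were kept at 25 °C for 10 days. Control mycelium was harvested at that point, without wood. The other groups then received 2 g of chips of a hybrid poplar (Populus simonii × P. nigra) and were harvested 3, 5, 7 or 11 days later, so every wood culture was also older than the controls. Each of the 5 groups held 15 bottles, used as 3 biological replicates according to the labels. All cultures were of 1 strain, and no group of the same age without wood was sequenced among the 15 libraries. In mycelium sequenced in bulk, fewer cells expressing a gene and less RNA per cell cannot be told apart.

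Library totals ran from 32472274 to 48361622 counts. Sample codes in the labels fall into 2 series: 6 libraries (the controls and replicate 1 of days 3, 5 and 7) in the first and 9 in the second. All controls are in the first and all day 11 libraries in the second. The third day 5 library is headed D5-23 in the count table, a number that matches no sample title. It is called the unnumbered day 5 library. The on-off genes held 0.453% to 0.990% of a library's counts.

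The 161 genes lay between near silence and high expression. Their highest CPM in any library had a lowest value of 9.94, a median of 56.3 and a highest value of 2246. The median for all reference genes was 35.7. The rule itself keeps out genes whose highest CPM is much below 9.94, while the reference genes have no such floor. The difference between these medians is therefore not read as a property of the on-off genes. The largest ratio within a group ranged from 100.4 to 5157, with a median of 218. It reached 100 in 63 genes among the controls, 70 at day 3, 53 at day 5, 56 at day 7 and 51 at day 11. In 82 genes it did so in 1 group only, and in 79 it did so in at least 2 groups. It did so in all 5 groups in 3 genes, gene_6366, gene_6903 and gene_11382.

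The threshold passes through a continuous range of ratios. Just inside it, gene_8096 had 352, 0 and 355 counts at day 7, a ratio of 100.4, and gene_6878 had 120, 14329 and 17604 counts at day 3, a ratio of 101.5. The gene_6031 counts of 133, 573 and 1 at day 7 gave 102.6. Just outside it, gene_5356 had 0, 318 and 0 counts in the controls, a ratio of 98.9, and gene_11584 had 11, 1034 and 1390, a ratio of 98.7. The gene_9600 counts of 647, 6 and 906 at day 11 gave 95.5.

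A library was called on for a gene at 1/10 or more of that gene's own highest CPM plus 0.1, off at 1/100 or less, and intermediate between them. Of 2415 gene-library values, 1106 (45.8%) were on, 972 (40.2%) were off and 337 (14%) were intermediate, and 65 genes had no intermediate library. The rule itself asks for values 100-fold apart, so the presence of both states is not a finding. The plot of relative levels describes the values between them. Their number also depends on the rule and on the on and off limits, and it was not compared with other genes.

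**Figure D1:**
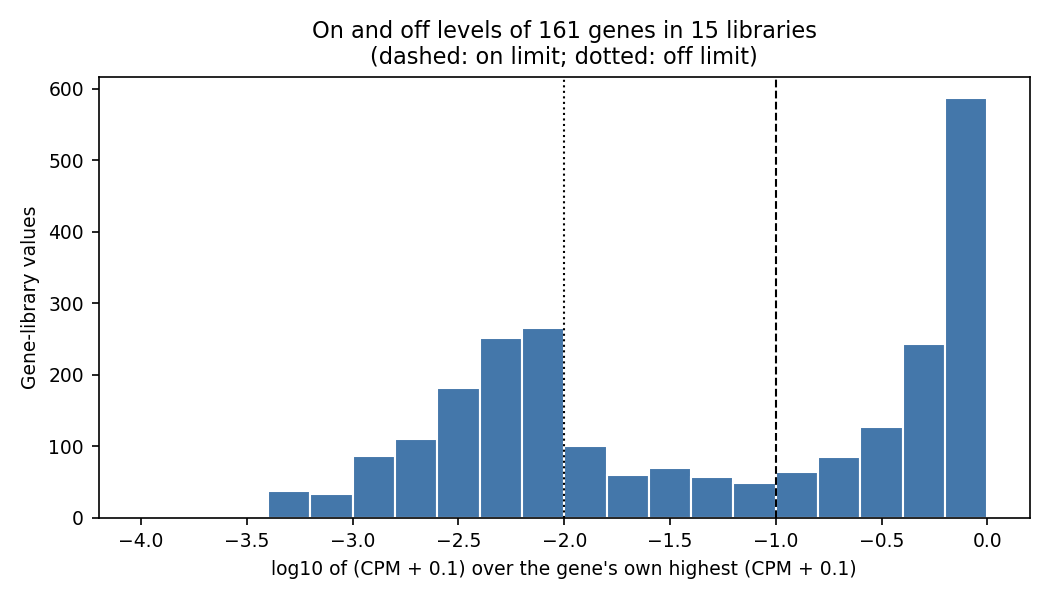
Number of gene-library values (y axis) by the log10 of a gene's CPM + 0.1 over its own highest CPM + 0.1 (x axis), for 161 genes in 15 libraries; the dashed line is the on limit and the dotted line the off limit. On values (1106) gather near 0 and off values (972) below the dotted line, with 337 values between the lines.

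On values lie within about 10-fold of each other by definition. Over the 161 genes the median span of on values was 3.01-fold and the highest 10.1-fold, and among the 145 genes with at least 2 on libraries 64 spanned less than 3-fold. The steadiest included gene_9736, on in 3 libraries at 145 CPM ± 12.3 (SD, n = 3), gene_5971 at 67.8 ± 5.41 (n = 4) and gene_10189 at 58.6 ± 5.72 (n = 5), chosen after their values were seen. These 3 genes were read at nearly 1 level wherever they were on.

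Off levels were close to 0. The median over genes of the highest off value was 0.136 CPM, and 29 genes had 0 counts in every off library. Of 134 genes with at least 2 off libraries, 35 had the same count in all of them, and in 15 of those the count was above 0. The gene_446 count was 1 in each of its 9 off libraries, gene_3616 had 3 counts in each of 12, and gene_6669 had 5 counts in each of 11. The named genes were taken from those 35, so by that choice their off counts did not move with library totals.

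**Figure D2:**
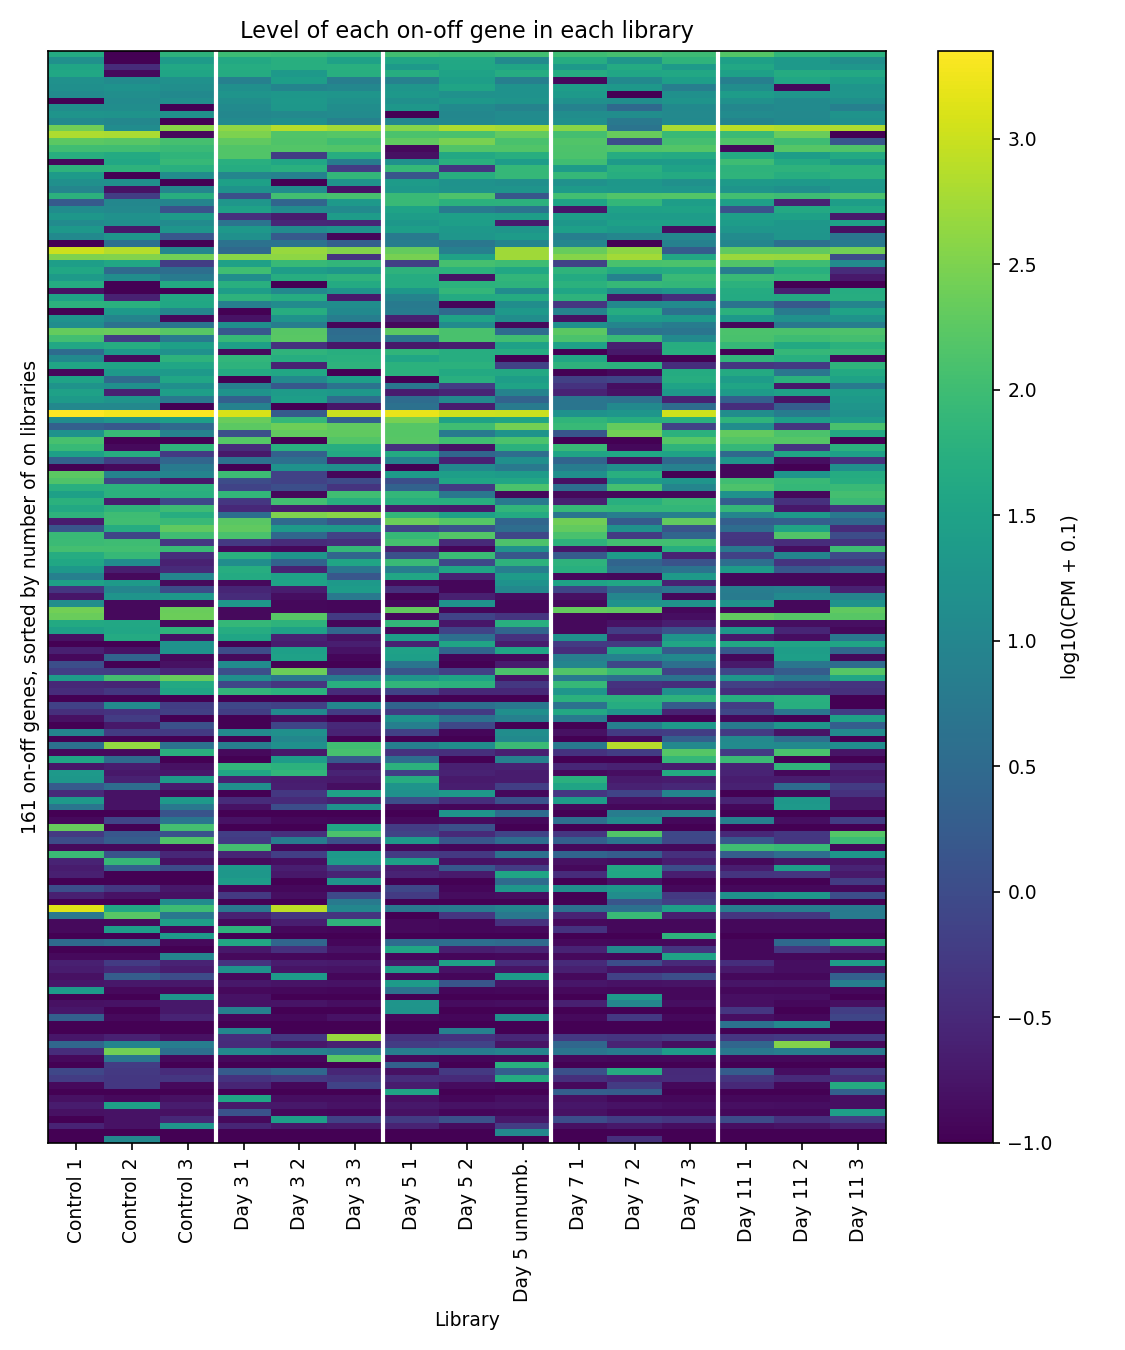
Level of each of 161 on-off genes (y axis, sorted by the number of on libraries) in each of 15 libraries (x axis, white lines between groups), as log10(CPM + 0.1) by colour. The upper genes are on in most libraries and the lower genes in few, and no library is dark or bright throughout.

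No library stood apart in the number of genes on. It was 64 to 83 per library, and 55 to 71 genes were off. On and off libraries occurred together within a group in 74 genes in the controls, 80 at day 3, 65 at day 5, 70 at day 7 and 58 at day 11. The state was the same in both libraries for a median of 65.6% of the genes called on or off in both (range 53.8% to 80.8%) over the 15 pairs of libraries from the same group. Over the 90 pairs from different groups the median was 65.5% (52.1% to 77.1%). Replicates thus shared states about as often as libraries of different groups, with no test made because the rule selects genes that differ between replicates. The highest share was between day 11 replicates 1 and 2, with 101 of 125 genes in the same state, and the next was between day 7 replicate 3 and day 11 replicate 1, with 91 of 118. The lowest was between control 3 and day 7 replicate 2, with 61 of 117.

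Most genes were switched on in both kinds of culture. In 114 genes at least 1 control and at least 1 wood library were on. In 43 genes none of the 3 controls was on, and in 4 (gene_7809, gene_4702, gene_1310 and gene_1228) none of the 12 wood libraries was. A library that was not on could be intermediate. The gene_7809 level was 4.86 to 24.0 CPM in its wood libraries, all intermediate, and its only off library was control 1 (0.257 CPM). The gene_2728 controls, none of them on, read 13.2 to 26.9 CPM. No gene was on in all 3 controls and in no wood library, and none was on in no control and in all 12 wood libraries. The library series divided few genes completely: 1 was on in replicate 1 of days 3, 5 and 7 and in no second-series library of those days, and 1 showed the reverse. Pairs of libraries from different groups shared the state in a median of 67.6% of genes within a series and 63.8% across series, with no test made.

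The largest ratio belonged to gene_7900. Its controls read 667, 633 and 0.0293 CPM, its wood libraries from day 3 to day 7 lay between 86.8 and 311 CPM, and its day 11 libraries read 92.7, 224 and 0. Control 3 and day 11 replicate 3 were thus off and the other 13 libraries were on.

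The gene_446 values separated cleanly into 2 levels. Its controls read 264, 0.0308 and 230 CPM, day 3 read 0.0303, 0.0227 and 0.0216, day 5 read 201, 0.0207 and 0.023, day 7 read 213, 193 and 0.0226, and day 11 read 0.0247, 0.0229 and 193. All groups but day 3 held both states, and the on libraries had a mean of 216 CPM ± 27.6 (SD, n = 6).

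The gene_10770 values were 123, 0 and 0 CPM in the controls, 157, 0 and 152 at day 3, 167, 103 and 131 at day 5, 0, 0 and 161 at day 7, and 152, 160 and 0 at day 11. Only day 5 was on throughout. The other genes with the largest ratios were each high in few libraries or low in few. The gene_177 level was 222 and 114 CPM in controls 1 and 3 and 38 CPM in day 3 replicate 3, and at most 1.12 CPM elsewhere. The gene_124 level was 173 CPM (8025 counts) in day 3 replicate 3 and 4.96 CPM in control 2, with 1 count in each of the other 13. The gene_10850 level was 344 CPM (15032 counts) in day 11 replicate 2 and at most 9.27 CPM elsewhere. The gene_11140 level was instead low in few libraries, with 1 count each in day 5 replicate 1 and day 11 replicate 1 and 87.9 to 159 CPM in the others.

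**Figure D3:**
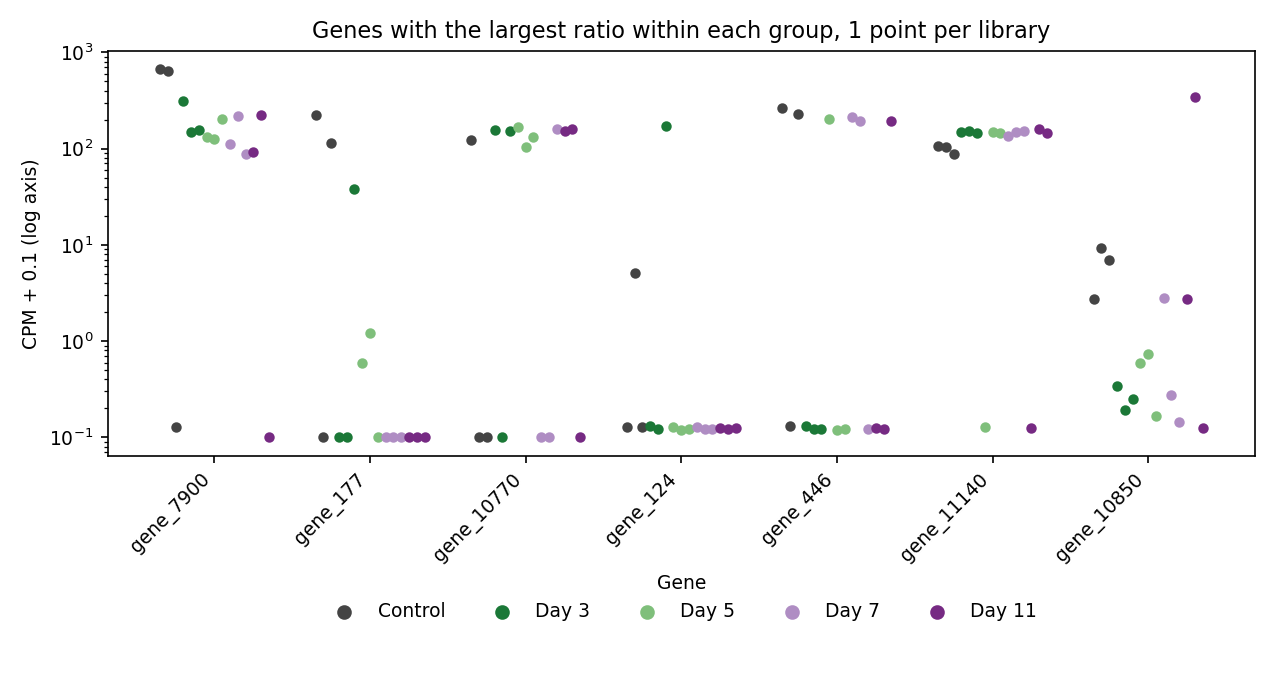
CPM + 0.1 on a log axis (y) of the genes with the largest ratio within a group (x), 1 point per library, coloured by group and drawn in library order. Points of 1 colour fall at both the top and the bottom, as for gene_446, whose on libraries lie at 193 to 264 CPM and whose off libraries lie near 0.02 to 0.03 CPM.

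The most abundant on-off genes were not silent when low. The gene_5635 level was 2246, 1872 and 2147 CPM in the controls, 1283, 1.66 and 1011 at day 3, 1641, 1030 and 1016 at day 5, 16.3, 19.3 and 1110 at day 7, and 13.5, 6.63 and 15.9 at day 11. All controls were high and all day 11 libraries were low, while days 3 and 7 held both. The gene_1162 level was 1365, 39.8 and 102 CPM in the controls, 834 CPM in day 3 replicate 2, and 3.87 to 28.8 CPM in the other wood libraries. The gene_5604 level was 1064, 749 and 9.79 CPM in the controls and, among the wood libraries, low only in day 3 replicate 1 (2.91), day 5 replicate 2 (7.82) and day 7 replicate 3 (1.74).

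Several genes switched within every group or nearly so. The gene_6366 level was 90.6, 0.708 and 103 CPM in the controls, 128, 2.75 and 0.625 at day 3, 82.0, 157 and 0.759 at day 5, 128, 0.479 and 2.51 at day 7, and 0.395, 148 and 0.921 at day 11. Each group had at least 1 high and 1 low library. The gene_11382 on values were only 14.1 to 20.8 CPM, in 7 libraries spread over all groups, and each of its 8 off libraries had 1 count. The gene_6530 level was 87.1 to 233 CPM in 5 wood libraries and 0.205 to 1.71 CPM in the other 10, controls included.

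Few on-off genes switched together. Clustering of log2(CPM + 0.1) by average linkage, with the tree divided at a distance (1 minus Pearson r) of 0.1, gave 1 set of 4 genes and 6 pairs, and 145 genes were in neither. The 4 genes were gene_4644, gene_8276, gene_3329 and gene_1962, with a lowest r of 0.911 between any 2 of them. All 4 were off in control 2 only. Their values there were 0, 0, 0.246 and 0.0308 CPM, and in the other 14 libraries they were 45.6 to 156, 12.1 to 66.5, 18.9 to 55.5 and 21.8 to 52.6 CPM. The set rests on control 2: without it, none of the genes formed a set of 3 or more. Outside the on-off genes, gene_11715 (r = 0.97 over 15 libraries) and gene_84 (r = 0.96) were most like the mean of the set. The pairs likewise shared 1 or 2 libraries: gene_10564 and gene_12082 were off in control 3, and gene_6165 and gene_10109 (r = 0.999) were on in control 3 and day 7 replicate 3.

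Over all 12880 pairs of on-off genes the median r was -0.00. An r of 0.8 or more was reached by 20 pairs (0.155%), against 4.13% of pairs of reference genes. An r of -0.8 or less was reached by 23 pairs (0.179%), against 1.30%. These correlations share libraries and rest mostly on 1 of them: with any single library left out, 5 of the 20 and 5 of the 23 kept their limit.

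The opposed pairs with the lowest r are of this kind. The gene_4702 level was 29.4 CPM (954 counts) in control 2 and at most 0.117 CPM elsewhere, the mirror image of the set of 4. Its r with gene_4644 was -0.99 and became -0.34 without control 2, and with gene_1962 it went from -0.98 to -0.07. Its r with gene_3329 went from -0.94 to 0.34. The gene_1228 level was 10.3 CPM in control 2, 0.283 CPM in day 7 replicate 2 and 0 elsewhere, and its r with gene_1962 was -0.95.

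The pair gene_8568 and gene_5836 differed from these, since its r of -0.97 was -0.96 without day 3 replicate 2. The gene_8568 level was 0.159 CPM in day 3 replicate 2, 0.621 in the unnumbered day 5 library, 0.271 in day 7 replicate 3, and 0.395 and 0.457 in day 11 replicates 1 and 2, and it was 34.9 to 66.2 CPM in the other 10. The gene_5836 level was 10.3, 11.6, 2.03, 11.1 and 3.61 CPM in those 5 libraries and at most 0.0218 CPM in the other 10. The 2 genes were thus never high in the same library.

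A closer opposition lay between on-off genes and genes with adjacent identifier numbers, a search added after the data were seen. A gene within 3 identifier numbers with r of -0.8 or less in log2(CPM + 0.1) over the 15 libraries was found for 24 of the 161 genes (14.9%), against 711 of 11486 reference genes with counts (6.19%). In 20 of the 24 the identifiers were consecutive and in 4 they were 2 apart. None of the 24 opposed genes was itself an on-off gene. The positions of reference genes are not used here, so whether consecutive identifiers lie side by side on the genome was not checked.

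Pairs chosen by such an r have a higher neighbour where the on-off gene is low by construction, so the levels and the sums of the pair are given as a description. For gene_446 and gene_445 the neighbour read 134 to 147 CPM in the 6 libraries where gene_446 was on and 263 to 385 CPM in the 9 where it was off, without overlap. The sum was 263 to 411 CPM, with a coefficient of variation (CV) over libraries of 12.4%, against 128% for gene_446 and 37.8% for gene_445.

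A mirrored pattern was also seen for gene_2205 and gene_2204. The gene_2205 level was 227, 0.0308 and 237 CPM in the controls, 0.0303, 169 and 0.453 at day 3, at most 0.641 at days 5 and 7, and 198, 158 and 168 at day 11. The gene_2204 level was 37.3 to 71.5 CPM where gene_2205 was on and 187 to 266 CPM elsewhere. Their sum stayed within 187 to 274 CPM, with a CV of 11.6% against 129% and 55.2%.

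For gene_63 and gene_64 the on-off gene was high in all controls (167 to 223 CPM) and all day 11 libraries (130 to 139 CPM), and days 3, 5 and 7 held both high libraries (128 to 179 CPM) and low ones (1.4 to 4.79 CPM). By the limits above, only day 3 replicate 1 was off and the other 4 low libraries were intermediate. The gene_64 level was 90.3 to 130 CPM where gene_63 was on and 240 to 281 CPM elsewhere, and the sum had a CV of 10.5%. For gene_8568, described above, gene_8569 read 73.4 to 82.4 CPM in its 5 low libraries and 18.5 to 31.2 CPM in the other 10. The CV of that sum was 13.4%, against 78.0% and 62.2%.

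The on-off gene gene_6903 met the ratio in every group. Its controls read 85, 0.0308 and 67 CPM, day 3 read 0.243, 56.4 and 51.6, day 5 read 0.322, 0.062 and 60.5, day 7 read 90.5, 0.0218 and 68.5, and day 11 read 79.5, 0.366 and 59. Its neighbour gene_6904 read 23.1 to 47.5 CPM where gene_6903 was on and 91.9 to 135 CPM where it was off, without overlap. The gene_9960 level was 0 in control 2, day 3 replicate 2 and day 11 replicates 2 and 3, and 44.7 to 82.4 CPM in the other 11 libraries. Its neighbour gene_9959 read 51.7 to 87.6 CPM in those 4 libraries and 14.1 to 27.2 CPM in the other 11. The gene_9736 level was 131, 150 and 153 CPM in day 3 replicate 3, day 7 replicate 2 and day 11 replicate 3, and 0.222 to 1.42 CPM elsewhere. Its neighbour gene_9737 read 66.4, 70.4 and 68.7 CPM in those 3 libraries and 123 to 243 CPM elsewhere. In the pairs of gene_6903, gene_9960 and gene_9736 the neighbour kept a measurable level in both states, while the on-off gene read at most 1.42 CPM where it was off.

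**Figure D4:**
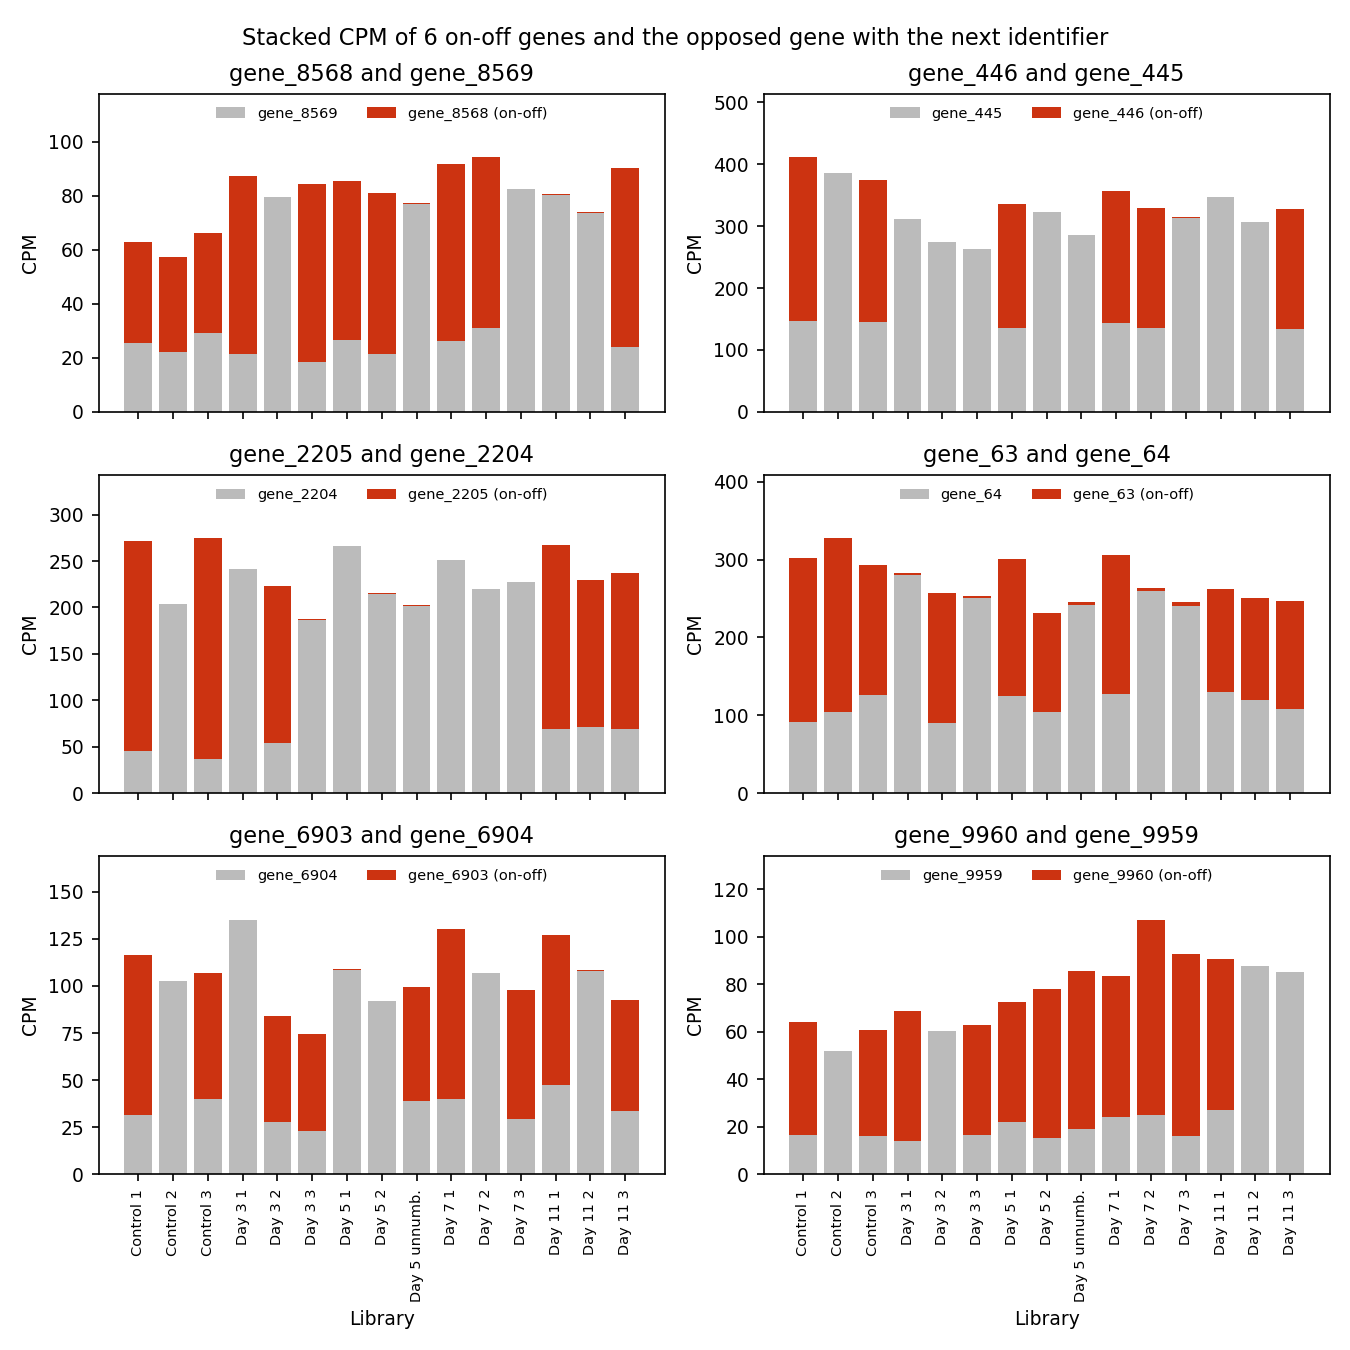
Stacked CPM (y axis) of 6 on-off genes (red) and the opposed gene with the next identifier (grey) in each of 15 libraries (x axis). Grey bars are tall where red is missing, and the stacks stay within narrow ranges, as 263 to 411 CPM for gene_446 with gene_445.

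The remaining opposed pairs followed the same course with more spread. Over the 24 pairs the median CV was 126% for the on-off gene, 46.9% for the neighbour and 17.7% for the sum (8.5% to 60.3%). In all 24 the sum varied less than either gene, and in 18 its CV was under 25%. The choice by r favours a steady sum. Among consecutive identifiers with an r of -0.8 or less, the sum varied less than either gene in 20 of 20 pairs with an on-off gene. Without an on-off gene it did so in 76 of 118 pairs. Among consecutive pairs not chosen by r, it did so in 132 of 290 pairs with an on-off gene and in 5856 of 10694 without. The spread that chose the on-off genes also enters these sums, so the counts are a description with no test. The lowest CV of a sum belonged to gene_9570 with gene_9569, at a sum of 143 to 199 CPM. With any single library left out, 16 of the 24 kept an r of -0.8 or less. In 21 the neighbour was the longer gene by the length in the table, with medians of 2097 bases for the on-off genes and 29962 for the neighbours. That length equals the summed transcripts of a locus in all 847 newly assembled loci, and was not checked for reference genes.

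On-off genes exceeded all reference genes in the share of opposed pairs at consecutive identifiers. Pairs were counted from each gene, so reference pairs and the 5 consecutive pairs of on-off genes enter from both sides. Of 315 pairs of an on-off gene with the gene 1 number away, so counted, 20 (6.35%) had an r of -0.8 or less. Over all reference genes the share of such pairs was 1.24%. At a difference of 2 the shares were 1.28% (4 of 312) and 1.20%, and at 3, 4, 5, 10 and 50 no on-off pair reached it, against 0.994% to 1.34% over all reference genes. At those distances the on-off genes thus lay below the reference genes. An r of 0.8 or more was seen in 0.317% of the consecutive pairs of on-off genes and in 7.48% of those of all reference genes. The spread that chose the on-off genes also enters r, and these shares carry no test. Assignment of shared reads to 1 or the other gene and a change in transcription cannot be told apart from counts per gene, so the levels of these 24 genes and their neighbours are uncertain.

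**Figure D5:**
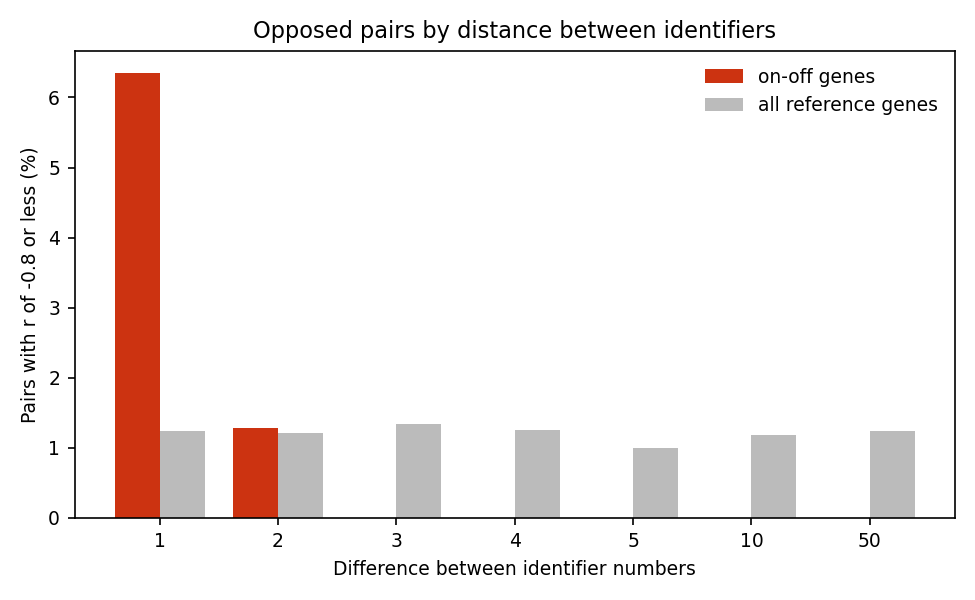
Share of gene pairs with r of -0.8 or less, in percent (y axis), by the difference between identifier numbers (x axis), for pairs that include an on-off gene (red) and for all reference genes (grey). The red bar at a difference of 1 is 6.35% against 1.24%, and at 2 the bars are 1.28% and 1.20%.

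On-off genes that were neighbours of each other were few. Of 5 pairs with consecutive identifiers, gene_3162 and gene_3163 had the lowest r (-0.74). The gene_3162 level was 444 CPM in control 2 and 746 CPM in day 7 replicate 2, where gene_3163 read 12.8 and 4.64 CPM. In the other 13 libraries gene_3162 was 3.99 to 106 CPM and gene_3163 was 261 to 801 CPM. In those 2 libraries the levels were exchanged, while in day 3 replicate 3 and the unnumbered day 5 library both genes were on. Their sum was 265 to 813 CPM with a CV of 30.1%.

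Whether on-off genes followed the presence of wood was asked with edgeR's quasi-likelihood test on the whole table, with group and library series as terms. The spread that chose these genes also enters that test. Genes were called at a 2-fold or larger change with a p under 0.05 after Benjamini-Hochberg adjustment over all genes tested. With the average of the 4 wood groups set against the controls, 9 of the 161 genes were called, or 6.16% of the 146 that passed the filter on low counts, against 11.0% of all genes tested. By direction, 2 were higher (4.19% of all genes tested were) and 7 lower (6.76%). With library totals in place of TMM scaling 15 were called, 6 higher and 9 lower, and 1546 of all 1962 genes called were higher, against 477 of 1247 here. At an unadjusted p under 0.05 the count was 24 (16.4% of the 146), against 40.5%. The genes' median log2 fold change was -0.19 and that of all genes tested 0.01, while the median size of the change was 2.16 against 0.44. The direction of that contrast in shares depends on the fit: DESeq2 called 25 of the 146 (17.1%), against 12.5% of all genes tested, and edgeR on the first series alone called 30 of 158 (19%), against 8.91%. The within-group spread that chose the genes bears on each of these tests, so the shares are not read as a property of the genes.

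The call best separated by library was gene_1523, which was higher with wood. Its controls read 0.0571, 0 and 0 CPM, and its wood libraries read 11.7 to 77.1 CPM except day 11 replicate 2 at 0.137. All wood libraries lay above all controls, with a log2 fold change of 10.09 (SE 2.14, adjusted p = 0.00471, edgeR). The call held with any single library left out.

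The other 8 called genes overlapped between wood and control libraries, and 7 of the 9 were on in at least 1 control and 1 wood library. The gene_2205 change was -14.94 (SE 4.24, adjusted p = 0.0213, edgeR), although all its day 11 libraries were on. Its size depends on the fit, with -5.95 without the series term and -9.47 by DESeq2. The plain means were 155 CPM in the controls and 57.9 CPM with wood. The edgeR call was lost without day 3 replicate 1 (adjusted p = 0.170) or day 5 replicate 1 (adjusted p = 0.0649). The gene_1162 change was -7.07 (adjusted p = 0.0266, edgeR) and rested on 1 high control: without control 1 it was -4.21 with an adjusted p of 0.10, and the call was also lost without replicate 1 of day 3 (0.0771) or day 7 (0.0895). The gene_2487 level was 169 CPM in control 2 and 90.6 CPM in day 7 replicate 2 and at most 6.34 CPM elsewhere, with a change of -10.58 (adjusted p = 0.0368, edgeR). That call was lost without control 2 (adjusted p = 0.130), day 5 replicate 1 (0.131) or day 7 replicate 1 (0.147). The gene_2487 change was -4.95 without the series term.

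For 2 of the 7 genes called lower, the plain mean with wood was above that of the controls. For gene_5937 the controls averaged 8.56 CPM ± 8.25 (SD, n = 3) and the wood libraries 14.4 ± 10.7 (n = 12). Its first-series wood libraries read 0.0607, 0.146 and 0.0565 CPM and its second-series ones 6.99 to 33.0. Its fitted change was -7.07 (adjusted p = 0.00501, edgeR) and became 0.29 (adjusted p = 0.906) without the series term, so its direction depends on that term. The gene_10384 level was 1.26 CPM in control 3, 3.22 to 17.7 CPM in 4 wood libraries and 0 in the other 10. Its fitted change of -12.51 (adjusted p = 0.0495, edgeR) lost its call in 13 of 15 fits with 1 library left out. That change was -2.01 without the series term and -7.40 by DESeq2, and neither fit called the gene.

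The gene_9618 level was 33.7, 3.11 and 37.4 CPM in the controls and 0 to 59.6 CPM with wood, with near-equal means of 24.7 ± 18.8 (SD, n = 3) and 24.4 ± 22.6 (n = 12). Its fitted change of -7.62 (adjusted p = 0.0104, edgeR) became -0.54 (adjusted p = 0.813) without the series term. The gene_8800 change was -7.83 (adjusted p = 0.0434, edgeR), and that gene is among the 24 with an opposed neighbour. The second gene called higher, gene_11493, had 3.93 (adjusted p = 0.0361, edgeR). With 1 library left out, gene_8800 lost its call in 11 of 15 fits and gene_11493 in 6 of 15. Both lost the call without the series term, as did 5 of the 9 in all, and 3 of the 9 kept it with any single library left out.

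Between day 11 and day 3 no on-off gene was called by edgeR, against 1.42% of all genes tested (0.729% higher and 0.694% lower). An unadjusted p under 0.05 was reached by 27 of the 146 tested (18.5%), against 21.6%. DESeq2 instead called 19 of the 146 (13%), against 2.98% of all genes, so the call count between these days depends on the tool. The gene_10189 level was 0 in all controls and at days 3 and 5, 59.8, 61.3 and 65.6 CPM at day 7, and 50.4, 56.1 and 0 at day 11. It was on only in late cultures, and its change from day 3 to day 11 had an adjusted p of 0.150 (edgeR). Its neighbour gene_10188 read 27.3 to 40.7 CPM in those 5 libraries and 49.7 to 96.1 CPM in the other 10, without overlap.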

How the data were processed

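Poly-A RNA of mycelium was sequenced as 15 libraries. The authors deposited whole-number estimated counts per gene with a gene length, FPKM values, and positions of newly assembled loci only. The submitters' processing notes name HISAT2, StringTie, DESeq 1.10.1 and DESeq2 without their roles. For build, annotation, strand setting and overlapping genes, the procedure is not stated in the labels or headers. The FPKM values deposited by the authors served only for alternatives. The unnumbered day 5 count column matched FPKM replicate 3 of day 5 best (Spearman rho 0.929 across genes, next best 0.903).

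CPM used column totals, with 0.1 added for ratios, logs and states. The on-off genes, the lists and the naming rule were chosen with earlier results of these data known. Named were the genes with the largest ratios, highest CPM, most groups, sets, lowest r, calls and values next to the threshold, and others are described as chosen after their values were seen: gene_63, the pairs of neighbours, and gene_10189. Counts of 11386 of 12885 genes passing filterByExpr were fitted in edgeR 4.0.16 (R 4.3.3; TMM, robust quasi-likelihood, 9 residual degrees of freedom, biological coefficient of variation 38.8%). The SE of a log2 fold change was derived from the F statistic. limma 3.58.1 and DESeq2 1.42.0 were alternatives, and the fit was tested on simulated data.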

Additional observations from a re-analysis of the deposited data

Results flagged for a closer look

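The change from controls differed between day 11 and day 3 in 162 genes of the whole table, by the contrast of those groups (edgeR, adjusted p under 0.05 and 2-fold or more), and no on-off gene was among them.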

How the results depend on the processing

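The number of on-off genes follows the rule: 26 with 1 in place of 0.1 added, 359 with 0.01, 271 at 50-fold, 86 at 200-fold, 100 in the second series alone, and 149 to 159 with 1 library left out. With FPKM + 0.1 in place of CPM + 0.1 it was 113, of which 104 were among the 161. Of the 972 off values, 690 were also off in FPKM and 0 were on. Of the 1106 on values, 1102 were also on in FPKM. The genes in sets of 3 or more numbered 0 by Spearman correlation, 7 with the tree divided at 0.2, and 0 to 8 with 1 library left out. Opposed neighbours numbered 39 from deviations from group means (24.2% against 6.85% of reference genes), 43 at r of -0.7 (26.7% against 13.4%) and 8 at -0.9 (4.97% against 1.16%). These alternatives for opposed neighbours were added after seeing the data. On-off genes called between wood and control numbered 25 by DESeq2 (17.1% of those tested against 12.5% of all genes), 30 in the first series alone (19% against 8.91%), 15 by library totals (10.3% against 17.2%) and 16 without the series term (11% against 13.2%), and 6 to 15 with 1 library left out (15 without day 3 replicate 2). All genes called there numbered 1962 by library totals and 1965 by limma on log2(FPKM + 0.1), and 1546 of the 1962 were higher, against 477 of 1247. The median of all genes moved from 0.01 to 0.45 (log2) with library totals. Between day 11 and day 3, all genes called numbered 339 by DESeq2, 92 in the second series alone, 44 without the series term and 48 to 192 with 1 library left out. On-off genes called there numbered 19 by DESeq2 (13% against 2.98%), 2 by limma on log2(FPKM + 0.1), 1 on log2(FPKM + 1), 2 in the second series alone, and 0 to 3 with 1 library left out. The gene_5937 change of -7.07 was 0.29 without the series term. With each gene's group mean subtracted from its log CPM, same-numbered libraries of different groups correlated at -0.05 to 0.34, over 0.1 in 3 of 26 pairs. Those 3 are between replicate 1 of days 3, 5 and 7, which share the first library series, and no other pair passed 0.1. With the replicate number as a block, 934 and 61 genes and 6 and 0 on-off genes were called. Over the called genes, 147 of 216 values kept their call, 68 lost it and 1 reversed. The cause of these changes was not tested. Low counts limit the off levels.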
